A study of Homo sapiens with 2 samples.

Results

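Chitinase-3-like protein 1 (CHI3L1, also called YKL-40), its reported receptors and co-receptors, and its expressed chitinase relatives make up the 9 genes described here, of 19362 genes in the table. They were chosen by symbol: the siRNA target CHI3L1, 5 genes reported to act as its receptors or co-receptors (IL13RA2, TMEM219, LGALS3, CD44 and SDC1) and 3 relatives of the chitinase family (CHID1, CTBS and OVGP1). The relatives were taken because they are expressed, so their presence is not a result. RNA sequencing compared FTC-133 cells that received CHI3L1 siRNA (1 library) with FTC-133 cells that received control siRNA (1 library). FTC-133 is an established human line from a follicular thyroid carcinoma. No source used here gives the time after transfection, the number of cultures behind a library or the siRNA sequences. The comparison asks what differs when CHI3L1 is silenced. Because each group is 1 library, replicates cannot check any difference, p-values are left out, and every difference is between these libraries.

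CHI3L1 is a secreted glycoprotein that binds chitin and related sugars without cutting them, and it is made by macrophages, neutrophils, chondrocytes and many tumours. It belongs to glycoside hydrolase family 18 (GH18), in which true chitinases carry a catalytic glutamate at the end of a conserved acidic motif. CHI3L1 has been reported to act on cells through IL13RA2, a high-affinity receptor for interleukin-13 with a short cytoplasmic tail. TMEM219 is reported as the co-receptor, and galectin-3 (LGALS3), the hyaluronan receptor CD44 and the heparan sulfate proteoglycan syndecan-1 (SDC1) as further binding partners.

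The coding bases of the GH18 motif show how CHI3L1 differs from its enzymatic relatives. They are given 5′ to 3′ on the coding strand from GENCODE release 29 transcripts on GRCh38, as the stretch aligned with the motif of the active chitinase CHIT1. The capitals mark the codon aligned with the catalytic glutamate.
CHI3L1: gatgggctggaccttgcctggCTC
CHI3L2: gatggactggatgtaagctggATC
OVGP1: gatggtcttgaccttttcttcTTA
CTBS: gatggaattaatatagatataGAG
CHIT1: gacggccttgaccttgactggGAG
CHIA: gacgggctggactttgactggGAG
The capital codon was identical in CTBS, CHIT1 and CHIA and was another codon in CHI3L1, CHI3L2 and OVGP1. In CHI3L1 the stretch covers codons 133 to 140 of 383 and lies at chr1:203183686-203183709 on the minus strand. In OVGP1 it lies at chr1:111423603-111423626 and in CTBS at chr1:84570027-84570050, both on the minus strand. The alignment of CHID1 with CHIT1 had a gap in this stretch, so none is shown for it. Over the aligned residues of the translated sequences, CHI3L1 was 53.3% identical to CHIT1, 51.6% to its closest non-enzymatic namesake CHI3L2, 51.3% to CHIA, 47.2% to OVGP1 and 25.1% to CTBS.

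CHI3L1 (ENSG00000133048) had 48.6 CPM (947 reads) in the CHI3L1 siRNA library, against 140 CPM and 2215 reads in the control siRNA library. CPM is the read count scaled for depth, as deposited. The CHI3L1 siRNA library was thus 65.3% lower, with a ratio of 0.347 and a 95% exact (Clopper-Pearson) interval of 0.321 to 0.374. Such intervals cover counting error only, and they may be too narrow because no molecular identifiers are described. The log2 fold, taken after adding 1 CPM to each value, was −1.51. The gene is protein coding, is annotated to the minus strand at chr1:203178931-203186749 (GRCh38) and has 10 exons in its principal transcript. The siRNA target was thus lower in the library labelled with its siRNA, and it was still detected there.

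By log2 fold with 1 CPM added, CHI3L1 was the sole one of the 9 genes past 1.5-fold in either direction. OVGP1, near the 1 CPM limit, had a lower CPM ratio of 0.627 without that addition, on few reads. Among the 14815 genes tested, whose mean reached 1 CPM, 21.1% were past 1.5-fold (13.4% lower and 7.73% higher), and 4.41% were at least 2-fold lower. A log2 fold at least as low as that of CHI3L1, itself included, was had by 166 of the 14815 genes (1.12%), and by 30 of 2141 genes whose mean CPM was within 1.5-fold of its own (1.40%). By distance over log2(CPM + 1) in both libraries, the 4 genes nearest to CHI3L1 were NIPSNAP3A, COPS4, NDUFS4 and BID, with log2 folds from −1.62 to −1.43. With 2 libraries this measure says only that their levels were alike.

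Per kb of annotated transcript, CHI3L1 ranked 6 of the 9 genes in the CHI3L1 siRNA library and 2 in the control siRNA library. Its level was 27.1 CPM per kb (exact Poisson 95% counting interval 25.4 to 28.9) in the CHI3L1 siRNA library, against 78.2 CPM per kb (74.9 to 81.5) in the control siRNA library. In the CHI3L1 siRNA library the order was LGALS3 (304 CPM per kb), CD44 (63.4), SDC1 (62.3), TMEM219 (48.2), IL13RA2 (41.8), CHI3L1, CHID1 (16.8), CTBS (2.31) and OVGP1 (0.389). In the control siRNA library it was LGALS3 (319 CPM per kb), CHI3L1, TMEM219 (57.9), CD44 (48.7), SDC1 (48.1), IL13RA2 (35.4), CHID1 (15.4), CTBS (1.97) and OVGP1 (0.620). CD44 and SDC1 overlapped in their counting intervals in both libraries and cannot be ordered, while the intervals of other neighbours in these orders did not overlap. All 5 receptor genes were thus above CHI3L1 in the CHI3L1 siRNA library, and 4 of them were below it in the control siRNA library. With all exons of a gene merged as its length, CHI3L1 ranked 6 in the CHI3L1 siRNA library and 3 in the control siRNA library, behind LGALS3 and SDC1. SDC1 and CHI3L1 then overlapped in their intervals in the control siRNA library.

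**Figure D1:**
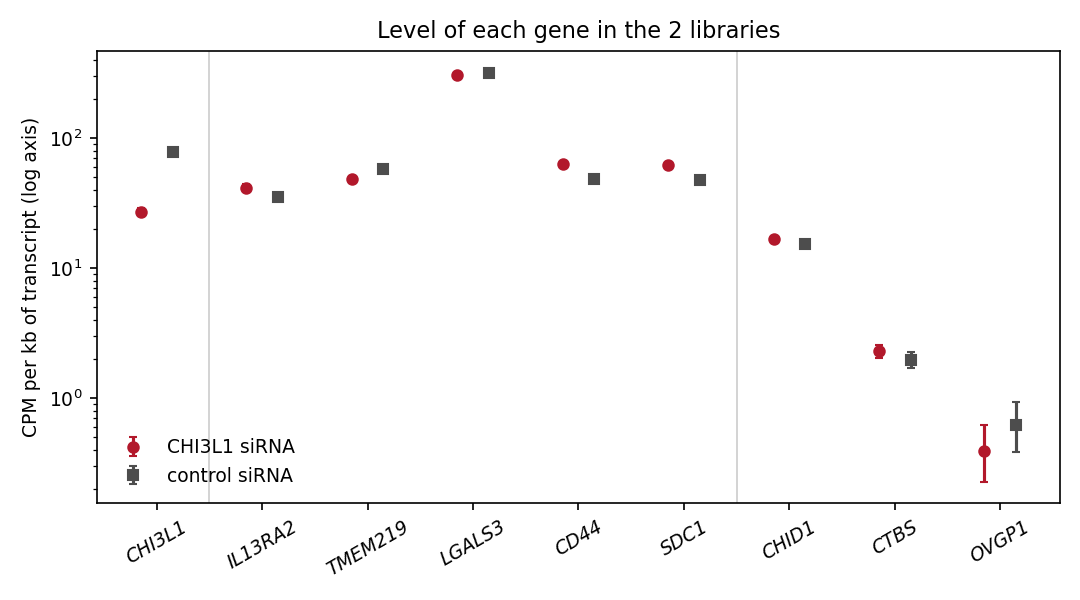
Level of each of the 9 genes in CPM per kb of annotated transcript (log axis) in the CHI3L1 siRNA library (circles) and the control siRNA library (squares), 1 library each, with exact Poisson 95% counting intervals. CHI3L1 stands at 27.1 CPM per kb in the CHI3L1 siRNA library and 78.2 in the control siRNA library, the widest gap among the 9 genes. OVGP1 stands at 0.389 in the CHI3L1 siRNA library and 0.620 in the control siRNA library, with overlapping intervals.

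IL13RA2 (ENSG00000123496, chromosome X) had 57.2 CPM (1116 reads) in the CHI3L1 siRNA library, against 48.5 CPM and 767 reads in the control siRNA library. The ratio was 1.18 (1.08 to 1.30) and the log2 fold 0.23, higher in the CHI3L1 siRNA library and short of 1.5-fold. TMEM219 (ENSG00000149932, chromosome 16), a membrane protein that is also known as a death receptor for the growth factor binding protein IGFBP3, lay on the other side of 1. It had 62.3 CPM (1214 reads) in the CHI3L1 siRNA library, against 74.9 CPM and 1184 reads in the control siRNA library, a ratio of 0.832 (0.767 to 0.902). In the deposited values the reported receptor was thus higher and its co-receptor lower in the CHI3L1 siRNA library, both short of 1.5-fold. After the length and GC correction described below, TMEM219 was no longer lower (log2 fold 0.06), and IL13RA2 was at 0.84.

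LGALS3 (ENSG00000131981, chromosome 14), a galactoside-binding lectin of cytosol, nucleus and cell surface, was the highest of the 9 genes per kb in both libraries. It had 349 CPM (6798 reads) in the CHI3L1 siRNA library, against 366 CPM and 5786 reads in the control siRNA library, a ratio of 0.953 (0.920 to 0.987). The interval left out 1, and the log2 fold of −0.07 was nearest to 0 of the 9 genes.

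CD44 (ENSG00000026508, chromosome 11) had 363 CPM (7085 reads) in the CHI3L1 siRNA library, against 279 CPM and 4411 reads in the control siRNA library, a ratio of 1.303 (1.255 to 1.353). SDC1 (ENSG00000115884, chromosome 2) had 196 CPM (3821 reads) in the CHI3L1 siRNA library, against 151 CPM and 2394 reads in the control siRNA library, a ratio of 1.29 (1.23 to 1.36). Both cell surface genes were higher in the CHI3L1 siRNA library, with log2 folds of 0.38 and 0.37. CD44 is spliced into many isoforms, which values per gene do not separate.

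Of the 5 receptor genes, 3 were higher and 2 lower in the CHI3L1 siRNA library, each with a counting interval that left out 1, and the median log2 fold was 0.23. Over all 14815 genes tested, 61.6% had an interval that left out 1, and the median log2 fold was 0.01. An interval that leaves out 1 was therefore common in these libraries. Together the 5 receptor genes had 1028 CPM in the CHI3L1 siRNA library, against 920 CPM in the control siRNA library.

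CHID1 (ENSG00000177830, chromosome 11) encodes a chitinase domain protein that was described as a partner of the scavenger receptor stabilin-1. It had 56.7 CPM (1106 reads) in the CHI3L1 siRNA library, against 52.0 CPM and 823 reads in the control siRNA library, a ratio of 1.09 (0.995 to 1.19). CTBS (ENSG00000117151, chromosome 1) encodes the lysosomal enzyme chitobiase, which cuts the chitobiose core of N-glycans. It had 15.2 CPM (297 reads) in the CHI3L1 siRNA library, against 13.03 CPM and 206 reads in the control siRNA library, a ratio of 1.17 (0.976 to 1.40). Exons of CTBS overlap those of SPATA1 on the opposite strand and of AL359762.3 on the same strand, but these had at most 25 reads in either library. OVGP1 (ENSG00000085465, chromosome 1), oviductal glycoprotein 1, had 0.872 CPM (17 reads) in the CHI3L1 siRNA library, against 1.39 CPM and 22 reads in the control siRNA library, a ratio of 0.627 (0.312 to 1.24).

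The counting intervals of all 3 relatives held 1, so no difference was detectable at this depth. The interval was narrowest for CHID1 and widest for OVGP1, and it covers neither variation between cultures nor the processing. CHI3L2, the closest non-enzymatic namesake of CHI3L1, had 6 reads in the CHI3L1 siRNA library, against 8 in the control siRNA library, and its mean was under 1 CPM. Expression of CHIT1 and CHIA was not analysed here. Of the summed level of CHI3L1, CHI3L2, CHID1, CTBS and OVGP1 per kb, CHI3L1 made up 57.9% in the CHI3L1 siRNA library, against 81.0% in the control siRNA library. CHI3L1 was the highest of these GH18 genes per kb in both libraries. In the GH18 list, 0 of 4 tested genes were higher and 1, CHI3L1, was lower, with a median log2 fold of −0.12. That list holds the siRNA target itself, and the 3 relatives alone had a median of 0.12.

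**Figure D2:**
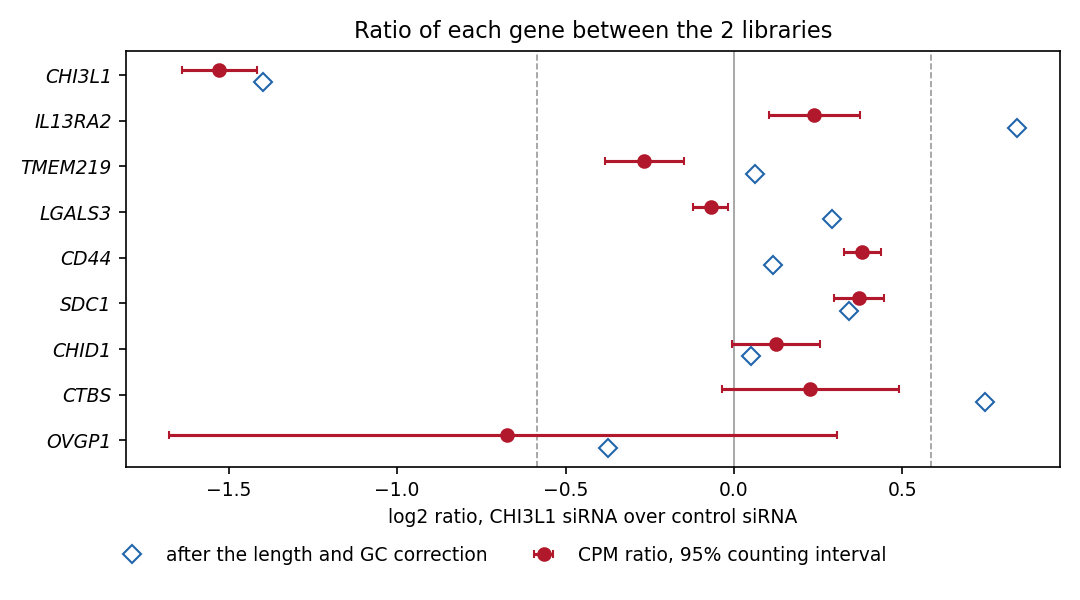
Ratio of the CHI3L1 siRNA library to the control siRNA library on a log2 scale for the 9 genes, as the CPM ratio with its 95% exact counting interval (circles, no pseudocount) and as the log2 fold with 1 CPM added after correcting for the length and GC content of transcripts (diamonds). Dashed lines mark 1.5-fold, which CHI3L1 passes in both measures and IL13RA2 and CTBS after the correction.

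Folds in these libraries followed transcript length, and the 9 genes are set beside genes of their own length. Coding genes of up to 1000 nt (599 genes) had a median log2 fold of −0.62. The median was −0.24 from there to 2000 nt (2492 genes), 0.03 from there to 4000 nt (4942 genes) and 0.25 beyond (4627 genes). CHI3L1, with a transcript of 1792 nt, was lower than all but 2.05% of the genes in its length class. IL13RA2 (1371 nt) was higher than 86.1% of the same class, LGALS3 (1146 nt) than 64.9% and TMEM219 (1292 nt) than 48.4%. SDC1 (3147 nt) was higher than 83.8% of its class, and CD44 (5732 nt) than 65.9% of the longest class, whose median of 0.25 was near the 0.38 of CD44.

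**Figure D3:**
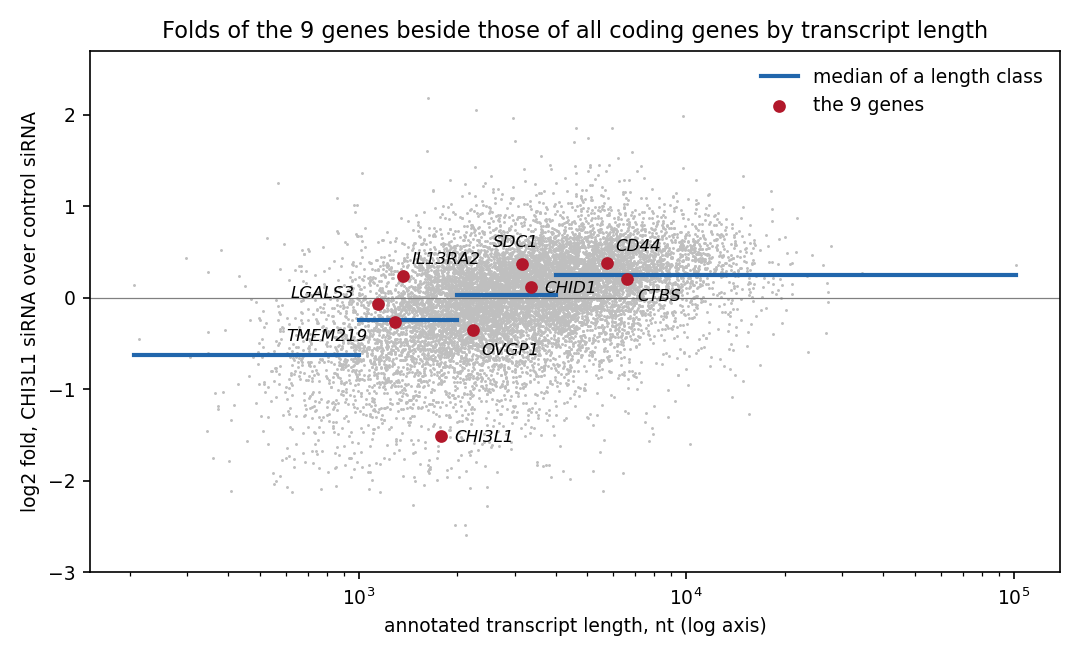
The log2 fold of CHI3L1 siRNA over control siRNA against annotated transcript length (log axis) for tested protein-coding genes (grey points), with the 9 genes in red and the median of each length class as a blue line. CHI3L1 lies far under its class median of −0.24, and TMEM219, CD44, CTBS and CHID1 lie near theirs.

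A smooth trend in the length, coding length and GC content of transcripts was then subtracted. By these corrected folds 3 of the 9 genes were past 1.5-fold, beside 13.7% of 12660 coding genes (7.57% higher and 6.15% lower). CHI3L1 had a corrected log2 fold of −1.40, and 31 of the 12660 genes (0.245%) were as low. The corrected log2 fold was 0.84 for IL13RA2, higher than 97.5% of coding genes, and 0.75 for CTBS. Both have transcripts with few G and C bases, at 38.7% and 32.5% GC. CD44 was lowered to 0.12 by the correction. TMEM219 had 0.06 and LGALS3 0.29, so both changed sides of 0, and SDC1 (0.34), CHID1 (0.05) and OVGP1 (−0.38) stayed close to their deposited values. Whether the deposited or the corrected value is nearer to the RNA in the cells was not tested.

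Genes annotated within 100 kb of CHI3L1 were MYBPH and ADORA1 among those in the table. MYBPH, a myosin-binding protein gene on the minus strand, lies 3118 bp from CHI3L1 at its nearer edge. MYBPH had 11.4 CPM in the CHI3L1 siRNA library, against 15.6 CPM in the control siRNA library (ratio 0.735, interval 0.611 to 0.885). ADORA1, an adenosine receptor gene, had 19.4 CPM in the CHI3L1 siRNA library, against 22.3 CPM in the control siRNA library (0.869, 0.749 to 1.01). Neither passed 1.5-fold.

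Other genes of the same systems were counted by the 1.5-fold rule on the log2 scale with 1 CPM added. By that rule 7.73% of all 14815 tested genes were higher and 13.4% lower, with a median log2 fold of 0.01. By corrected folds the shares were 7.57% and 6.15% of 12660 coding genes. These shares stand beside every list count below, and a count of 1 in a short list is not read as a result about that list. In the interleukin-13 receptor list, 1 of 8 tested genes was higher and 0 were lower, and the median log2 fold was 0.28. The gene was STAT3, a transcription factor downstream of cytokine receptors, with 209 CPM in the CHI3L1 siRNA library, against 137 CPM in the control siRNA library. Its corrected log2 fold was 0.28, short of 1.5-fold, and by corrected folds IL13RA2 was the 1 gene of this list that was higher (median 0.14). The signalling receptor chain IL13RA1, named after its value was seen, had 207 CPM in the CHI3L1 siRNA library, against 158 CPM in the control siRNA library (ratio 1.31, 1.245 to 1.38). For IL4R the interval held 1 (ratio 1.03, 0.915 to 1.15), and JAK2 was lower (0.805, 0.671 to 0.964). The corrected log2 folds were 0.37 for IL13RA1, −0.18 for IL4R and −0.28 for JAK2. Deposited log2 folds of the remaining tested genes were 0.50 (JAK1), 0.32 (STAT6) and 0.07 (TYK2). Exons of JAK1 and STAT6 overlap those of other genes, so their reads are uncertain. The interleukins IL13 and IL4 were not analysed here.

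Among other reported CHI3L1 binding partners, 2 of 6 tested genes were higher and 0 lower (median log2 fold 0.34). The integrin subunit ITGAV had 485 CPM in the CHI3L1 siRNA library, against 290 CPM in the control siRNA library. LGALS3BP, a secreted galectin-3 binding glycoprotein that the galectin list also holds, had 404 CPM in the CHI3L1 siRNA library, against 248 CPM in the control siRNA library. In the galectin list LGALS3BP was the 1 of 5 tested genes that was higher, and 0 were lower (median 0.29).

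In the list around TMEM219, 1 of 4 genes was higher and 1 lower. IGFBP3, the TMEM219 ligand, had 307 CPM (5991 reads) in the CHI3L1 siRNA library, against 141 CPM and 2235 reads in the control siRNA library, a ratio of 2.17 (2.07 to 2.28). The corrected log2 fold of IGFBP3 was 1.19.

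In the list of hyaluronan genes and CD44 partners, 4 of 16 tested genes were higher and 2 lower (median log2 fold 0.36). CEMIP2, a cell surface hyaluronan-binding protein, had 91.3 CPM in the CHI3L1 siRNA library, against 40.3 CPM in the control siRNA library. VCAN, the hyaluronan-binding proteoglycan versican, had 940 CPM in the CHI3L1 siRNA library, against 528 CPM in the control siRNA library. HMMR, a hyaluronan receptor that also acts at the mitotic spindle, was lower, with 31.0 CPM in the CHI3L1 siRNA library, against 72.2 CPM in the control siRNA library. By corrected folds 3 of the 16 were higher and 1 lower (median 0.17), and VCAN, at 0.52, was no longer past 1.5-fold.

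Among syndecans and glypicans, 3 of 8 tested genes were higher and 0 lower (median log2 fold 0.43). Of all tested genes, 7.73% were higher and 13.4% lower. In the deposited values all 3 were glypicans, the lipid-anchored heparan sulfate proteoglycans. GPC6 had 252 CPM in the CHI3L1 siRNA library, against 103 CPM in the control siRNA library (ratio 2.45, 2.32 to 2.60). GPC4 had 484 CPM in the CHI3L1 siRNA library, against 214 CPM in the control siRNA library (2.26, 2.18 to 2.36), and GPC1 had a log2 fold of 0.65. The glypican GPC2, named after its value was seen, went the other way, short of 1.5-fold. Its log2 fold was −0.41 (ratio 0.698, 0.489 to 0.995) and its corrected log2 fold −0.44. The other syndecans tested, named after their values were seen, had log2 folds of 0.43 (SDC3) and 0.38 (SDC4), beside 0.37 for SDC1. By corrected folds 4 of the 8 were higher: GPC6, GPC4, SDC3 (0.59) and the syndecan-binding protein gene SDCBP (0.85), while GPC1 (0.49) was not. In the list of heparan sulfate synthesis and release, 3 of 12 tested genes were higher and 1 lower (median 0.46). The chain polymerase gene EXT2 (log2 fold 0.91) and the extracellular sulfatase gene SULF1 (0.80) were higher, and EXTL2 (−0.67) was lower. By corrected folds 2 of the 12, EXT2 (0.74) and SULF1 (0.64), were higher and 1, EXTL2 (−0.64), was lower (median 0.35).

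In the lysosomal N-glycan degradation list, in which CTBS acts, 4 of 14 tested genes were higher and 0 lower, with a median log2 fold of 0.48. GLB1, a beta-galactosidase, had 149 CPM in the CHI3L1 siRNA library, against 69.7 CPM in the control siRNA library. The log2 fold was 0.97 for the beta-mannosidase MANBA. Exons of GLB1 overlap those of TMPPE on the same strand, so its reads are uncertain. After the length and GC correction 6 of the 14 were higher, CTBS among them, and 0 lower, beside 7.57% higher and 6.15% lower of all coding genes.

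Among reported regulators of CHI3L1 transcription, 1 of 12 tested genes was higher (STAT3, above) and 2 were lower, with a median log2 fold of 0.36. FOS, an AP-1 transcription factor, had 263 CPM in the CHI3L1 siRNA library, against 468 CPM in the control siRNA library. IL6, a cytokine, had 4.77 CPM in the CHI3L1 siRNA library, against 7.78 CPM in the control siRNA library. Of signalling genes reported below CHI3L1, 0 of 11 tested were higher and 2 were lower (median 0.04). These were the chemokine genes CXCL8, with 31.6 CPM in the CHI3L1 siRNA library, against 84.2 CPM in the control siRNA library, and CCL2, with 11 reads in the CHI3L1 siRNA library, against 27 in the control siRNA library. After the length and GC correction neither chemokine gene was past 1.5-fold, and their log2 folds were −0.15 and 0.20. By corrected folds 1 of the 11 signalling genes was higher and 0 were lower. That gene was VEGFA (0.63, against 0.25 in the deposited values), named after its value was seen. IL6 was then at −0.01 and STAT3 at 0.28, so that of the 12 regulators FOS (−0.79) was the 1 lower gene and NFIX (0.66) and HIF1A (0.59), named after their values were seen, were the 2 higher genes. Exons of VCAN, EXTL2 and IL6 overlap those of genes on the opposite strand, and without the strand setting such reads cannot be told apart. Exons of HIF1A overlap those of HIF1A-AS1, so its reads are uncertain as well.

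**Figure D4:**
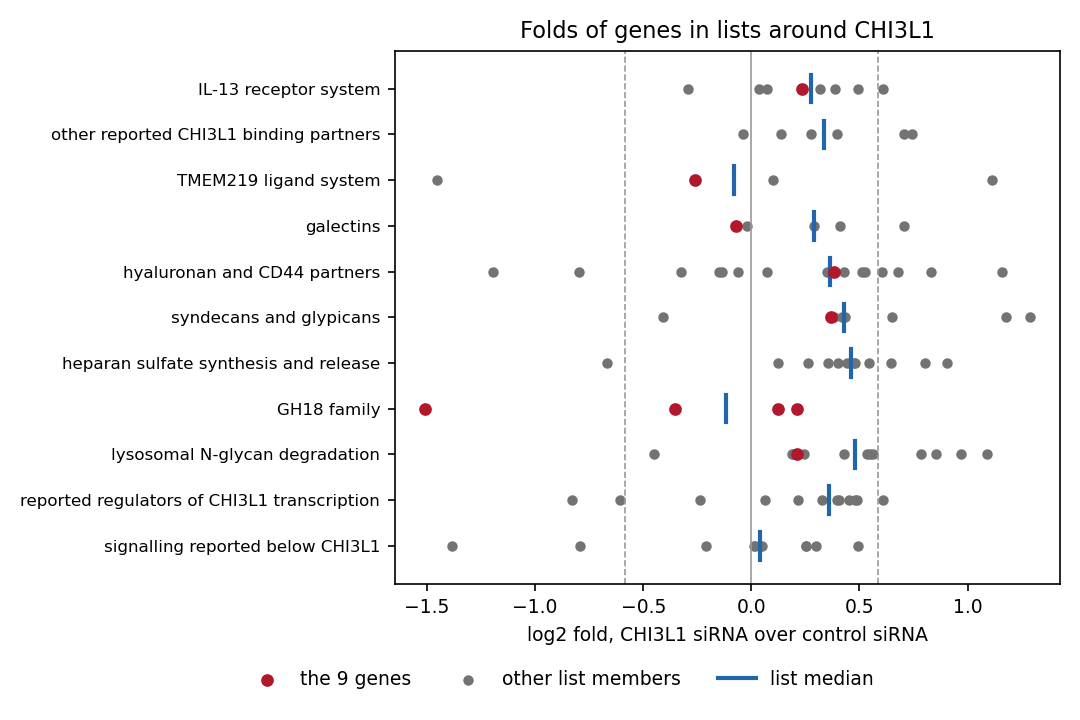
The log2 fold of CHI3L1 siRNA over control siRNA for tested genes of each list around CHI3L1 (grey), with the 9 genes in red, the list median as a blue bar and 1.5-fold as dashed lines. The medians run from −0.12 for the GH18 family to 0.48 for lysosomal N-glycan degradation, and the median of all tested genes was 0.01. The GH18 list holds the siRNA target CHI3L1, and its 3 other tested genes had a median of 0.12.

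Depth was 19467345 reads in the CHI3L1 siRNA library and 15837449 in the control siRNA library, so that 1 read was 0.0513 CPM in the CHI3L1 siRNA library and 0.0632 CPM in the control siRNA library. The thyroid transcription factor genes PAX8 and NKX2-1 were present, at 71.2 and 112 CPM in the CHI3L1 siRNA library and 82.8 and 88.6 CPM in the control siRNA library, whereas thyroglobulin (TG) had 14 reads in the CHI3L1 siRNA library and 10 in the control siRNA library. SLC5A5 was not analysed here. Of 7 macrophage markers 3 were in the table (PTPRC, CSF1R and MRC1), with a sum of 4.51 CPM in the CHI3L1 siRNA library and 5.19 CPM in the control siRNA library. The measured neutrophil marker (1 of 5, ELANE) had 3.74 CPM in the CHI3L1 siRNA library and 2.15 CPM in the control siRNA library, and the measured chondrocyte marker (1 of 4, SOX9) had 24.4 CPM in the CHI3L1 siRNA library and 23.5 CPM in the control siRNA library. Epithelial markers summed to 86.4 CPM in the CHI3L1 siRNA library and 86.9 CPM in the control siRNA library. Fibroblast markers summed to 795 CPM in the CHI3L1 siRNA library and 619 CPM in the control siRNA library, mostly THY1. That sum hides opposite directions. In the CHI3L1 siRNA library THY1 was higher (745 CPM, against 558 in the control siRNA library) and LUM lower (40.2 against 51.8). PDGFRA was also lower, on few reads (2 against 9), and the intervals of DCN and PDGFRB held 1. Endothelial markers summed to 5.69 CPM in the CHI3L1 siRNA library and 8.79 CPM in the control siRNA library. None of the markers in the table had 0 reads. In bulk RNA, fewer cells that make CHI3L1 and less CHI3L1 RNA per cell cannot be told apart.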

How the data were processed

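The authors deposited 1 table of CPM values for 19362 Ensembl genes in 2 libraries. HISAT2, featureCounts, Trimmomatic, FastQC, MultiQC and the build GRCh38 are named, per the submitters' processing notes. No source used here gives versions, annotation release, normalisation tool, strand setting or low-count filter. Every gene had at least 6 reads in a library. Reads were recovered as CPM divided by a fixed step per library, less 0.001. All values (100%) came out whole within 0.01 read. The recovered read counts were used for intervals and levels, since 1 library per group allows no count test. Symbols were matched through an Ensembl identifier table and GENCODE release 29 (GRCh38), which gave lengths and coordinates. The 9 members matched. Folds are log2 ratios with 1 CPM added, over genes whose mean reached 1 CPM. The correction is a spline fit (patsy 1.0.2, 5 degrees of freedom for each of length, coding length and GC content) over 12547 coding genes outside the lists. It took up 36.2% of their variance. Genes were named by rule: the 9, up to 3 list members with the largest fold past 1.5, neighbours within 100 kb and the 4 nearest in level. Some list genes that the rule takes are not reported here. Members and lists were chosen with earlier results of these data known. Steps were tested on simulated data. Alternatives were other pseudocounts, scalings, thresholds and filters. Python 3.11.15 was used.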

Additional observations from a re-analysis of the deposited data

How the results depend on the processing

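CHI3L1 was lower under each setting run. Its log2 fold was −1.36 at a pseudocount of 10 CPM and −1.40 after the length and GC correction, both outside its counting interval. The members past 1.5-fold were 3 after that correction and 4 at the lower fold threshold tried, which 48.8% of all tested genes passed, against 1 in the deposited values. Of the 8 other genes, 5 moved outside their counting interval with the correction and 3 with centring on genes of at least 50 CPM. None did so with other pseudocounts, equal totals or a trimmed mean of log ratios. Counts over all genes moved by less than 1.5 times without a filter, with the mean raised to 10 CPM and among protein-coding genes. No paired analysis was possible because each group has 1 library, and for the same reason no replicate could be left out. Depth limits OVGP1 and CHI3L2 most, with 22 reads or fewer in either library.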

Other observations

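FOXE1, a thyroid transcription factor gene in the marker list, had 19 reads in the CHI3L1 siRNA library, against 1 read in the control siRNA library, a ratio of 15.4 (2.45 to 640). Its mean was under 1 CPM, it was picked out after its values were seen, and no other library checks it. The heparan sulfate chain initiation gene XYLT1 had 16 reads in the CHI3L1 siRNA library, against 4 in the control siRNA library (ratio 3.24, 1.05 to 13.3), also under 1 CPM. Among galectins outside the 9 genes, LGALS1 had 2520 CPM in the CHI3L1 siRNA library, against 2559 CPM in the control siRNA library, a log2 fold of −0.02. Its transcript has 560 nt, in the length class with the lowest median, and its corrected log2 fold was 0.72.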
